A study of Homo sapiens with 12 samples.

Results

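The genes described here were 35 genes that mark the proximal tubule of the kidney, listed by symbol and matched to the Ensembl identifiers of 12 RNA sequencing libraries from HK2 cells, an immortalised line of human proximal tubule epithelium. All 35 symbols were found among the 62703 identifiers, and 19 of them reached 1 TPM (transcripts per 1000000, a level per transcript length with the same total in each library) in 3 or more libraries. The other 16 stayed under that minimum. There were 4 groups of 3 libraries. The NG libraries came from cells in 5.5 mM glucose that received a control vector, and the HG libraries from cells in 50 mM glucose. The sources also describe NG as a mannitol medium in one passage, so whether HG versus NG was matched for osmolarity is not settled. The si-FGF9 libraries came from cells in 5.5 mM glucose transfected with an siRNA to FGF9, and the HG+OE-FGF9 libraries from cells in 50 mM glucose that received a vector overexpressing FGF9 (named as a lentivirus in one place and an adenovirus in another). The protocols name no non-targeting siRNA, and they name the control vector for NG alone. Glucose and vector in HG versus NG, siRNA and vector in si-FGF9 versus NG, and FGF9 and its vector in HG+OE-FGF9 versus HG therefore cannot be told apart. All cells were of 1 line, and nothing in the labels says that the 3 libraries of a group came from separate cultures, so p-values measure only the spread between these libraries, which may be technical.

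FGF9 itself was listed at 0 TPM in all 9 libraries of NG, HG and si-FGF9, and at 3.34, 4.03 and 3.82 TPM in the HG+OE-FGF9 libraries. The overexpression was therefore visible in each of its libraries, and the knockdown could not be checked in these values. Depth was unknown, because TPM keeps no read number. Between 11549 and 13949 genes reached 1 TPM per library, and 12 to 18 of the 35 proximal tubule genes did. The mitochondrial share of TPM was 4.94 to 8.6% in si-FGF9 and 11.31 to 15.56% in the other libraries. Over all genes tested, the replicate pair farthest apart was HG 2 and 3, with a median absolute log2 difference of 0.554, and the closest was HG+OE-FGF9 1 and 2, at 0.085. HG+OE-FGF9 library 3 differed from those 2 by 0.385 and 0.387.

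The proximal tubule takes back most of what the glomerulus filters. Its apical brush border carries peptidases and sodium-coupled carriers, the receptors megalin and cubilin bring filtered protein into the cell, and basolateral carriers load organic anions, cations and drugs for secretion. The segment also makes glucose from lactate and glutamine. HNF4A is among the factors that drive this programme in the adult tubule, while PAX2, PAX8 and LHX1 act from the first steps of nephron formation. Cultured tubule lines are known to keep only a part of it.

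Promoter sequence was available for 27 of the 35 genes, in 46 windows of 250 bases that end at a RefSeq transcription start (GRCh38.p14). Motifs were searched as exact letters on both strands. The HNF1 half-site GTTAAT was in 5 of the 46 windows, against 6.23% of all 35116 windows of this length, and those windows belonged to SLC34A1, SLC22A6, ANPEP, HNF4A and MIOX. Of these 5 genes, MIOX alone passed the TPM minimum. The TATA box TATAAA was in 3 windows (SLC34A1, AQP1 and SLC22A6; 10.72% of all windows), and the GC box GGGCGG in 22 windows of 17 genes (42.64% of all windows). The HNF4 core CAAAGTCCA was in 0 of the 46 windows and in 0.32% of all. No motif overlapped another in the windows printed here. A match is a run of letters and not a measured binding site. Below are 5 windows, chosen after the values were seen, to set a pair of genes with almost no transcript (SLC34A1 and SLC22A6) beside MIOX, which rose with the siRNA, GATM, which fell in HG and si-FGF9, and PAX8, which fell with FGF9 overexpression. Capitals mark the motif matches. The windows are chr5:177384184-177384433 (plus strand) for SLC34A1, chr11:62984968-62985217 (minus) for SLC22A6, chr22:50486609-50486858 (plus) for MIOX, chr15:45378545-45378794 (minus) for GATM and chr2:113278922-113279171 (minus) for PAX8. SLC34A1 and SLC22A6 each hold HNF1 half-sites and a TATA box, MIOX holds 1 half-site, GATM holds 3 GC boxes, and PAX8 holds none of the 4 motifs.
SLC34A1: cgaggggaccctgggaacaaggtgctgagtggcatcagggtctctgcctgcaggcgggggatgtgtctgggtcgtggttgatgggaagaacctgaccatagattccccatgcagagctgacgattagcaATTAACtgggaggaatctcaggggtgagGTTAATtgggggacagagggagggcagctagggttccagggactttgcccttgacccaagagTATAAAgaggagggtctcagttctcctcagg
SLC22A6: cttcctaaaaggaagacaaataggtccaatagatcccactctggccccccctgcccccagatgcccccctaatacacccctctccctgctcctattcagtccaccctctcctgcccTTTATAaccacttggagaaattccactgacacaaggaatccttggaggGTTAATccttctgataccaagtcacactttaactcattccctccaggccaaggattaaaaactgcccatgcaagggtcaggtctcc
MIOX: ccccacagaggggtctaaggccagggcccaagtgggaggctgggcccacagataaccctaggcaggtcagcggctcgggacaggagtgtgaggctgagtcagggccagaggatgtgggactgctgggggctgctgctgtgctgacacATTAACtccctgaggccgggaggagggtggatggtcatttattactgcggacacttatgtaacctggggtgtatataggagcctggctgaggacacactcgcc
GATM: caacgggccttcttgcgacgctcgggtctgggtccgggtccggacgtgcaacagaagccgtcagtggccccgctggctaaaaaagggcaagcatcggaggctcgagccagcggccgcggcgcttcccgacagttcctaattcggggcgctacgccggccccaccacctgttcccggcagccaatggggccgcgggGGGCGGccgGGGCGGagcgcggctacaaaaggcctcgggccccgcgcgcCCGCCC
PAX8: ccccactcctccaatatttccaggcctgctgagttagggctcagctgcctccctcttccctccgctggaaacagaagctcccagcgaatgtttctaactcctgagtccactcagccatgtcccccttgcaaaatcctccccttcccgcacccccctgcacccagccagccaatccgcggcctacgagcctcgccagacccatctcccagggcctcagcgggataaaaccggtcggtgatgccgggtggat

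The label of the line was checked against these genes and against markers of other kidney cells. The defining receptors and carriers of the segment were at or near 0. LRP2 (megalin) and CUBN (cubilin) reached at most 0.02 TPM each. SLC22A6 and SLC22A8, the organic anion transporters OAT1 and OAT3, were listed at 0 in all 12 libraries, and SLC22A2, the organic cation transporter OCT2, reached 0.02 TPM. SLC34A1, the sodium-phosphate cotransporter NaPi-IIa, reached 0.15 TPM. At the other end, CDH6, GGT1 and PAX8 stood above 19 TPM in every library. Markers of later tubule segments were few: 0 of 4 thick ascending limb genes and 0 of 4 distal convoluted tubule genes passed the minimum. UMOD, SLC12A1 and PVALB were at 0 in all 12 libraries. In the collecting duct list 1 of 8 passed (ATP6V0D2), with AQP2 and SCNN1B at 0, and its summed level was 1.5 to 2.0 TPM in NG, 0.49 to 2.02 in HG, 0.53 to 0.75 in si-FGF9 and 2.13 to 3.27 in HG+OE-FGF9. Endothelial genes summed to at most 0.12 TPM. Leukocyte genes other than CD68, a lysosomal protein found in many cells, reached at most 0.07 TPM. Podocyte genes passed in 3 of 5 cases, and stromal genes in 2 of 4 (COL1A1 and LUM). The 19 of 35 proximal tubule genes were a similar share, so passing the minimum did not set them apart from these 2 lists. LUM reached 84.04 TPM, PODXL 17.63 and SYNPO 17.36, all far above the receptors and carriers near 0. The keratins and vimentin that epithelial lines carry passed in 4 of 4 cases and summed to 2171 to 4179 TPM per library.

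Of the 16 genes under the minimum, 7 never reached 0.1 TPM and 14 never reached 0.5 TPM. Besides those named above, these were SLC7A8 (highest 0.07 TPM), a light chain of the basolateral neutral amino acid exchanger, and FBP1 (0.04 TPM), the gluconeogenic fructose bisphosphatase. PCK1, the cytosolic PEP carboxykinase of gluconeogenesis, reached 0.23 TPM. ANPEP, the brush border aminopeptidase N, reached 0.26 TPM. Between these and the minimum lay SLC13A3 (0.27), a dicarboxylate carrier, SLC3A1 (0.32) and SLC7A9 (0.40), which together form the apical cystine transporter, and ABCG2 (0.39), an efflux pump. The 2 highest of the 16 were SLC17A3, an apical organic anion exit carrier, and HNF4A. SLC17A3 was at 0.63, 0.41 and 0.59 TPM in NG, at 0.33, 0.25 and 0.27 in HG, at 0.20, 0.09 and 0 in si-FGF9, and at 0.06, 0.08 and 0.07 in HG+OE-FGF9. Its NG values lay above those of every other group. HNF4A was at 0.78, 0.79 and 0.27 TPM in HG+OE-FGF9 and at 0.10 TPM or less in the other 9 libraries. These genes were below the minimum and had no test. An antisense gene, HNF4A-AS1, overlaps HNF4A, and the strand setting of the counting is not given, so reads of either cannot be told apart.

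**Figure D1:**
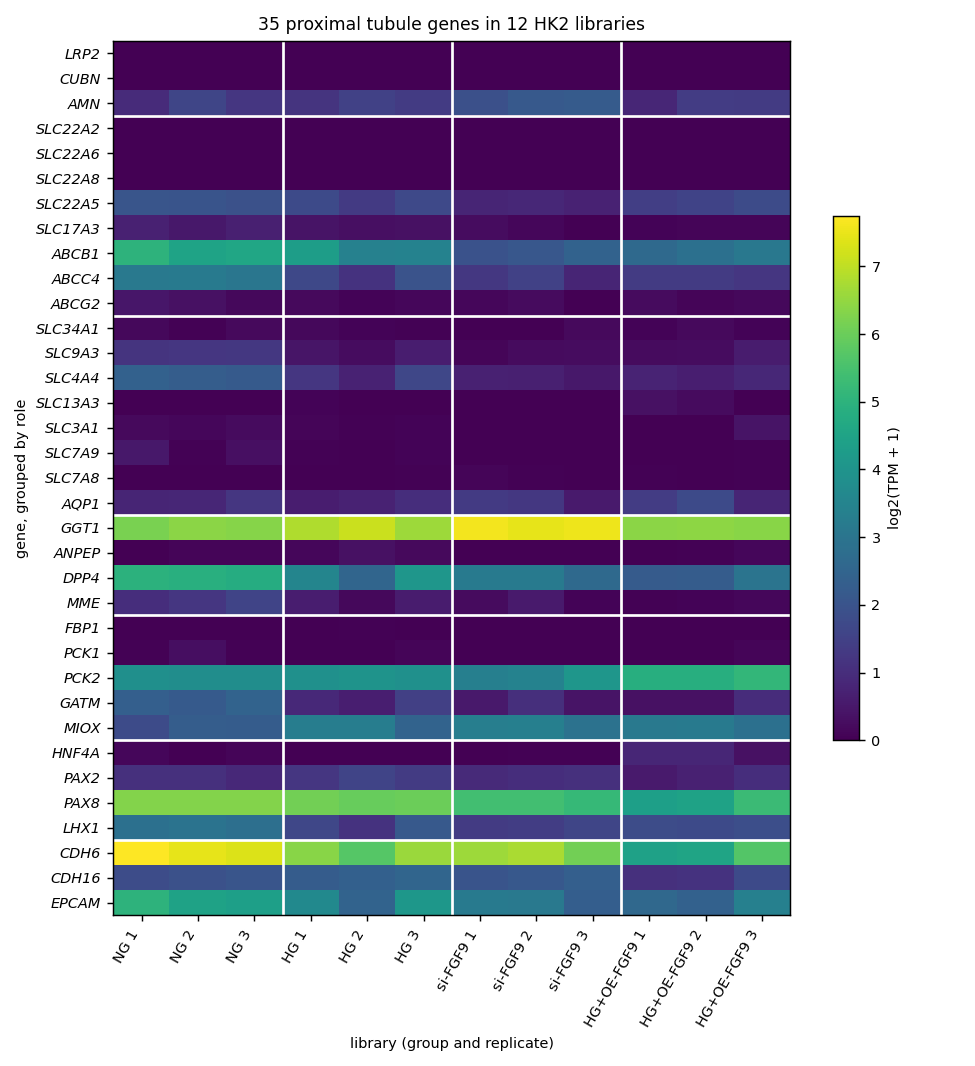
Level of each of the 35 proximal tubule genes (rows, grouped by role) in each of the 12 libraries (columns, 3 per group), as log2(TPM + 1) in colour. The endocytic receptors and organic ion carriers are dark throughout, apart from AMN, SLC22A5, ABCB1 and ABCC4, and GGT1, CDH6 and PAX8 are the brightest rows.

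Among the 19 genes that passed, levels in NG ranged from about 1 TPM (AQP1, PAX2) to 184 ± 27.5 TPM (SD, n = 3) for CDH6. The order in NG was CDH6, then GGT1 and PAX8, whose values (71.7 to 83.8 and 78.1 to 79.1 TPM) overlapped, then DPP4, ABCB1 and EPCAM, whose values lay between 19.9 and 31.3 TPM, then PCK2 and ABCC4. The remaining 11 genes had NG means under 7 TPM. In HG+OE-FGF9 the order was another: GGT1 stood first at 83.8 ± 2.37 TPM, and CDH6, PCK2 and PAX8 followed with ranges that overlapped one another (20.7 to 49.9, 28.0 to 34.3 and 19.7 to 38.0 TPM). TPM is a level per length, so genes can be set side by side within a library. In bulk RNA from a culture, fewer cells with a transcript and less transcript per cell cannot be told apart.

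**Figure D2:**
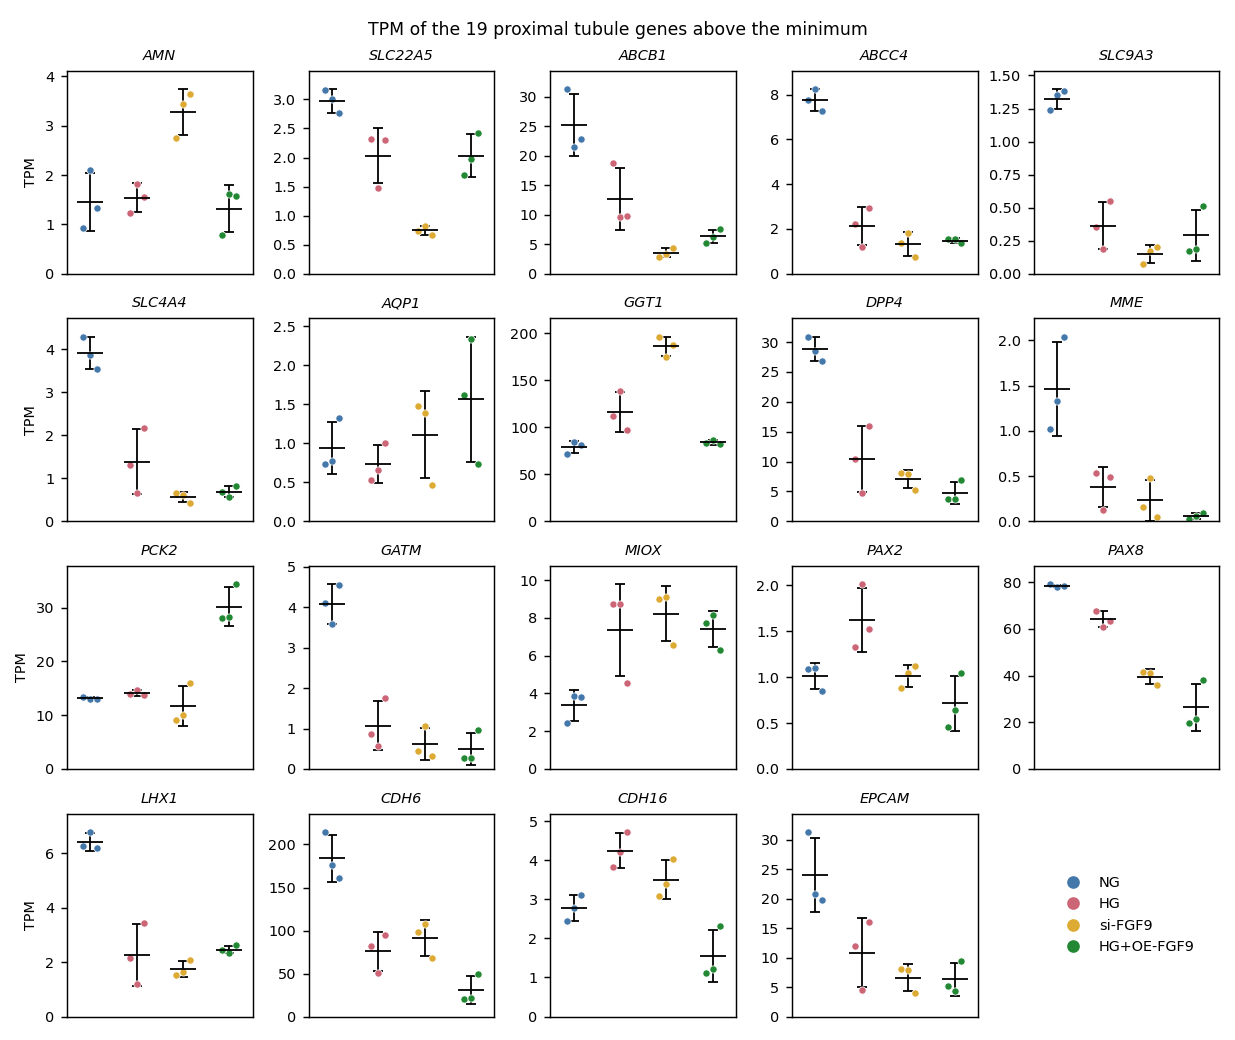
TPM of the 19 genes above the minimum, 1 panel per gene with its own axis from 0. Points are libraries (3 per group, in the order NG, HG, si-FGF9, HG+OE-FGF9), the horizontal line is the group mean and the bar is 1 SD. In most panels the NG points stand alone at the top, a pattern that was not counted over all genes. GGT1 is highest in si-FGF9 and PCK2 in HG+OE-FGF9.

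Differences between groups were fitted with limma on log2(TPM + 1) across all 14639 genes that passed the same minimum. A gene was called when its log2 fold change was at least 1 in size with an unadjusted p under 0.01, and Benjamini-Hochberg adjusted p-values over all genes tested stand beside each value. This call rule was taken over from the study's account of its sequencing. Fold changes on this scale understate the change of genes near 1 TPM. SLC9A3 and MME reached 1 TPM only in the 3 NG libraries, so their fall from NG is partly set by that minimum.

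The first comparison, HG versus NG, sets high glucose against normal glucose. None of the 19 genes was called higher and 6 were called lower: ABCC4, SLC4A4, DPP4, GATM, LHX1 and CDH6. Over all genes tested 1.65% were called higher and 22.7% lower, so 31.6% of the proximal tubule genes lower stands against a background that was itself mostly downward. The median log2 fold change was -0.78 for the 19 genes and -0.39 for all genes. At an unadjusted p under 0.05 and any fold, 3 of the 19 were higher and 11 lower, beside 10.8% and 45.0% of all genes. In all 6 called genes the HG values lay below every NG value, a pattern that, together with the call, 22.6% of all genes showed downward and 1.59% upward.

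Among the transporters, ABCC4 (MRP4), an apical pump for organic anions and cyclic nucleotides, was at 7.77, 8.25 and 7.29 TPM in NG and at 2.23, 1.21 and 2.93 TPM in HG. The groups were well apart, with a mean 3.66-fold lower in HG (log2 fold change -1.53, SE 0.23, adjusted p = 9.36e-04, limma). SLC4A4, the basolateral sodium bicarbonate cotransporter NBCe1 that returns bicarbonate to the blood, was at 4.29, 3.87 and 3.55 TPM in NG and at 1.32, 0.66 and 2.17 TPM in HG (log2 fold change -1.09, SE 0.22, adjusted p = 0.00233). SLC9A3, the apical sodium-proton exchanger NHE3, went from 1.24, 1.35 and 1.38 TPM to 0.35, 0.19 and 0.55 TPM. Its groups did not overlap and its mean was 3.64-fold lower, but near 1 TPM this amounts to -0.78 on the log2(TPM + 1) scale, short of the fold required. ABCB1, the drug efflux pump P-glycoprotein, was at 31.3, 21.5 and 22.8 TPM in NG and at 18.8, 9.59 and 9.74 TPM in HG (log2 fold change -0.98, SE 0.26, adjusted p = 0.00913). It also fell just short, and it was called when NG library 2, NG library 3 or HG library 1 was left out. SLC22A5, the carnitine carrier OCTN2, had a log2 fold change of -0.40 (SE 0.17, adjusted p = 0.0734). AQP1, the water channel of the segment, overlapped between groups (0.73 to 1.33 TPM in NG, 0.53 to 1.01 in HG).

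Of the brush border enzymes, DPP4, a dipeptidyl peptidase, was at 30.9, 28.6 and 26.9 TPM in NG and at 10.4, 4.82 and 15.9 TPM in HG. All HG values were under 16 TPM and all NG values over 26 TPM, a mean 2.77-fold lower (log2 fold change -1.52, SE 0.34, adjusted p = 0.00404). MME, neprilysin, was low in both groups (1.02 to 2.04 TPM in NG, 0.13 to 0.53 in HG), with a log2 fold change of -0.82 (SE 0.20). GGT1, the gamma-glutamyltransferase that starts the breakdown of filtered glutathione, was at 71.7, 83.8 and 80.8 TPM in NG and at 112, 139 and 97.2 TPM in HG. Every HG value was above every NG value, with a log2 fold change of 0.54 (SE 0.14, adjusted p = 0.00768), under the fold required. GGT1 has close family copies and overlaps SNRPD3 and LRRC75B, so its level is uncertain where reads were shared.

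GATM, the enzyme that makes the creatine precursor guanidinoacetate, was at 4.10, 3.59 and 4.56 TPM in NG and at 0.87, 0.58 and 1.75 TPM in HG, 3.83-fold lower (log2 fold change -1.33, SE 0.26, adjusted p = 0.00209). MIOX, the tubule-restricted oxygenase that breaks down myo-inositol, was at 2.41, 3.88 and 3.80 TPM in NG and at 8.75, 8.74 and 4.53 TPM in HG. Its HG values were all higher (log2 fold change 0.91, SE 0.25, adjusted p = 0.0112), and it was called when HG library 3 was left out. PCK2, the mitochondrial PEP carboxykinase, had NG values of 13.0 to 13.4 TPM and HG values of 13.7 to 14.7 TPM (log2 fold change 0.09, SE 0.19).

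LHX1, a LIM homeobox factor of early nephron formation, was at 6.24, 6.77 and 6.17 TPM in NG and at 2.16, 1.18 and 3.44 TPM in HG (log2 fold change -1.24, SE 0.23, adjusted p = 0.00177). PAX8 was at 79.1, 78.1 and 78.3 TPM and at 67.8, 60.9 and 63.5 TPM, apart in every library but by a log2 fold change of -0.29 only (SE 0.20, adjusted p = 0.26). PAX2 stayed between 0.85 and 2.01 TPM, with a log2 fold change of 0.37 (SE 0.17). In the adhesion group, CDH6, a cadherin of the developing proximal tubule, was at 214, 176 and 161 TPM in NG and at 81.5, 50.8 and 95.3 TPM in HG, the largest difference in TPM of the 19 (log2 fold change -1.30, SE 0.33, adjusted p = 0.0067). EPCAM, an epithelial adhesion molecule, was at 31.3, 20.9 and 19.9 TPM and at 11.9, 4.54 and 16.1 TPM (log2 fold change -1.20, SE 0.41). Its p of 0.0129 missed the threshold, and it was called without HG library 3. CDH16, the kidney-specific cadherin, was at 2.45 to 3.11 TPM in NG and at 3.82 to 4.72 TPM in HG (log2 fold change 0.47, SE 0.20, adjusted p = 0.0686).

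HG library 2 was the lowest HG library for each of the 6 called genes. Without it 4 genes were called, since LHX1 (-0.98) and SLC4A4 (-0.85) no longer reached the fold. Under median-of-ratios scaling, which centres the fold changes of all genes near 0, the calls split into 2 higher (GGT1 and MIOX) and 2 lower (ABCC4 and DPP4), with 7.43% of all genes higher and 8.27% lower.

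The second comparison, si-FGF9 versus NG, asks what the siRNA does in normal glucose, and it uses the same NG libraries as the first. Of the 19 genes 2 were called higher (GGT1 and MIOX) and 10 lower (SLC22A5, ABCB1, ABCC4, SLC9A3, SLC4A4, DPP4, GATM, LHX1, CDH6 and EPCAM). Over all genes tested 5.36% were called higher and 42.2% lower. The median log2 fold change was -1.02 for the 19 genes and -0.79 for all genes. Each of the 12 called genes had si-FGF9 values wholly above or below its NG values. With that added, 5.32% of all genes were higher and 42.2% lower.

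The 3 measured organic ion and drug transporters all fell. ABCB1 had the largest change of the 19 genes on the log2(TPM + 1) scale, from 31.3, 21.5 and 22.8 TPM to 2.87, 3.34 and 4.42 TPM, a mean 7.11-fold lower (log2 fold change -2.52, SE 0.26, adjusted p = 1.17e-05). ABCC4 was at 1.38, 1.82 and 0.75 TPM in si-FGF9 (5.90-fold lower, log2 fold change -1.95, SE 0.23, adjusted p = 2.37e-05). SLC22A5 was at 0.74, 0.82 and 0.67 TPM against 3.16, 3.01 and 2.76 in NG, 4.0-fold lower (log2 fold change -1.19, SE 0.17, adjusted p = 7.87e-05). Both acid-base carriers were lower as well. SLC4A4 was at 0.65, 0.61 and 0.42 TPM (log2 fold change -1.65, SE 0.22, adjusted p = 3.88e-05). SLC9A3 was at 0.07, 0.17 and 0.20 TPM (9.02-fold lower in mean TPM, log2 fold change -1.02, SE 0.16). It was tested only because its NG values passed the minimum, so its call adds no independent support. AQP1 overlapped, at 1.48, 1.39 and 0.47 TPM. AMN, the amnionless protein that anchors cubilin at the membrane, was at 2.75, 3.44 and 3.64 TPM in si-FGF9 and at 0.93, 2.10 and 1.34 TPM in NG. Its si-FGF9 values were all higher, but the log2 fold change of 0.82 (SE 0.22, adjusted p = 0.00564) was under the fold required.

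The brush border enzymes split. GGT1 was at 195, 175 and 187 TPM, its highest group, 2.36-fold above NG (log2 fold change 1.23, SE 0.14, adjusted p = 1.76e-05). DPP4 was at 8.01, 8.0 and 5.32 TPM, 4.05-fold below NG (log2 fold change -1.89, SE 0.34, adjusted p = 3.50e-04). MME was at 0.16, 0.48 and 0.05 TPM, with a log2 fold change that rounds to -1.0 but fell just short of a call (SE 0.20). The metabolic enzymes split too: MIOX was at 9.01, 9.10 and 6.56 TPM (log2 fold change 1.09, SE 0.25, adjusted p = 0.00203) and GATM at 0.45, 1.07 and 0.32 TPM (6.66-fold lower, log2 fold change -1.68, SE 0.26, adjusted p = 1.14e-04). PCK2 spanned 9.07 to 16.0 TPM around its NG values.

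Of the nephron factors, LHX1 was at 1.52, 1.63 and 2.06 TPM (log2 fold change -1.44, SE 0.23, adjusted p = 1.49e-04). PAX8 was at 41.6, 41.1 and 35.9 TPM, 1.98-fold under NG in mean, and its log2 fold change of -0.97 (SE 0.20, adjusted p = 0.00102) missed the fold required. PAX2 had the same mean as in NG, 1.01 TPM. EPCAM was at 8.09, 7.84 and 3.95 TPM (log2 fold change -1.74, SE 0.41, adjusted p = 0.00232), and CDH16 at 3.08, 3.39 and 4.04 TPM, overlapping with NG. CDH6 was at 98.1, 107 and 67.9 TPM, 2.02-fold lower (log2 fold change -1.02, SE 0.33, adjusted p = 0.0142). The CDH6 call was the least secure of the 12. It was lost when any 1 of the 6 NG and si-FGF9 libraries was left out, and its log2 fold change was 0.02 under median-of-ratios scaling and 0.56 after a correction for GC content. MIOX was not called without NG library 1 (log2 fold change 0.92), nor SLC9A3 without si-FGF9 library 1 (-0.97).

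Median-of-ratios scaling changed the split in this comparison to 4 higher (AMN, GGT1, MIOX and CDH16) and 4 lower (ABCB1, ABCC4, SLC4A4 and GATM), with 19.2% of all genes higher and 17.5% lower. Under quantile normalization the same 4 genes were called higher. ABCB1 and 1 brush border enzyme were called lower, with 16.2% of all genes higher and 17.1% lower.

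The third comparison, HG+OE-FGF9 versus HG, asks what added FGF9 does within high glucose. Of the 19 genes 1 was called higher (PCK2) and 3 lower (PAX8, CDH6 and CDH16). Over all genes tested 2.94% were called higher and 2.67% lower. With non-overlapping groups also required these shares were 2.82% and 2.06%, and the 4 genes met that as well. The median log2 fold change was -0.45 for the 19 genes and -0.13 for all genes.

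PCK2 was at 28.0, 28.2 and 34.3 TPM in HG+OE-FGF9 and at 13.9, 14.7 and 13.7 TPM in HG. It was 2.14-fold higher (log2 fold change 1.04, SE 0.19, adjusted p = 0.00703), and the log2 fold change was 0.95 without HG+OE-FGF9 library 3 and 0.99 after correction for GC content, both under the fold required. PCK2 overlaps NRL on the other strand. PAX8 was at 19.7, 21.3 and 38.0 TPM, against 67.8, 60.9 and 63.5 TPM in HG (2.43-fold lower, log2 fold change -1.31, SE 0.20, adjusted p = 0.00307). CDH6 was at 20.7, 21.9 and 49.9 TPM against 81.5, 50.8 and 95.3 TPM (2.46-fold lower, log2 fold change -1.34, SE 0.33, adjusted p = 0.025), with HG library 2 close to HG+OE-FGF9 library 3. CDH16 was at 1.12, 1.22 and 2.31 TPM against 3.82, 4.20 and 4.72 TPM (2.74-fold lower, log2 fold change -1.07, SE 0.20, adjusted p = 0.00792). HG+OE-FGF9 library 3 was nearest to HG in each of these 3 genes, and CDH16 was not called without library 1 or without library 2 of that group. Median-of-ratios scaling ended its call as well (-0.97) and left 1 gene higher and 2 lower, with 3.64% of all genes higher and 1.78% lower. PAX8 overlaps PAX8-AS1, so its reads could be split between them.

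PAX2 was also lower in every HG+OE-FGF9 library (0.46, 0.64 and 1.04 TPM) than in HG (1.33, 2.01 and 1.52 TPM), but at this level its log2 fold change was -0.62 (SE 0.17, adjusted p = 0.0458). LHX1, the remaining nephron factor, overlapped at 2.45, 2.32 and 2.61 TPM. GGT1 was at 83.3, 86.3 and 81.7 TPM, below all HG values by a log2 fold change of -0.45 (SE 0.14, adjusted p = 0.0628). ABCB1 was at 5.24, 6.21 and 7.53 TPM, again below HG without overlap (log2 fold change -0.85, SE 0.26, adjusted p = 0.0619). DPP4 was at 3.70, 3.78 and 6.94 TPM and overlapped with HG through HG library 2 (log2 fold change -0.89, SE 0.34). EPCAM was at 5.13, 4.32 and 9.49 TPM, likewise overlapping. Without HG library 2 these last 3 genes, ABCB1, DPP4 and EPCAM, were called lower as well, which made 7 calls in all, with 2.94% of all genes higher and 6.35% lower.

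The transporters and enzymes that were low in HG were also low with added FGF9. SLC22A5 had the same mean in both groups, 2.03 TPM. ABCC4 was at 1.54, 1.54 and 1.35 TPM, SLC4A4 at 0.69, 0.56 and 0.82 TPM, SLC9A3 at 0.17, 0.19 and 0.51 TPM, and GATM at 0.27, 0.26 and 0.96 TPM, all overlapping with HG and none called. MME was at 0.03, 0.06 and 0.09 TPM, under every HG value. MIOX overlapped (7.73, 8.16 and 6.31 TPM), as did AMN (0.78, 1.61 and 1.57) and AQP1 (1.62, 2.34 and 0.74). HG+OE-FGF9 was not fitted against NG, and the share of all genes lower there than in NG was not counted. Overlap with HG does not show that the level was the same.

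**Figure D3:**
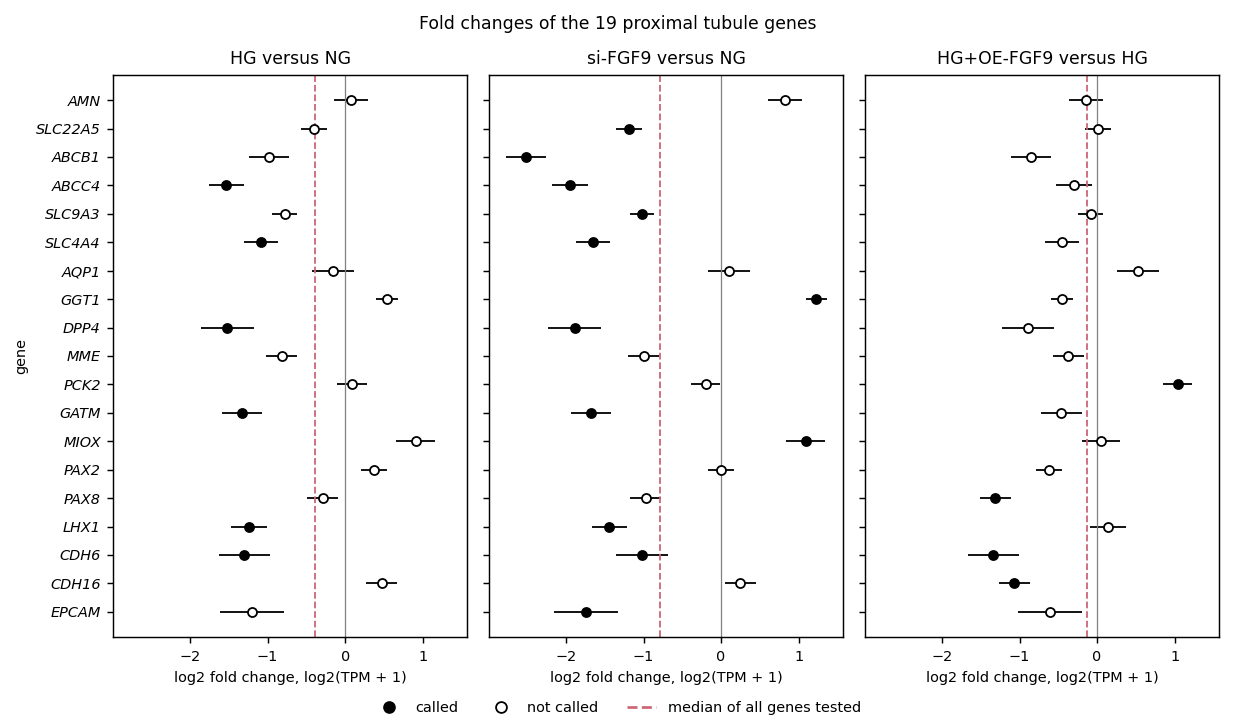
Log2 fold change with its SE (horizontal bar) of the 19 genes in the 3 comparisons, 3 libraries per group. Filled points are called, open points are not, and the dashed line is the median of all 14639 genes (-0.39, -0.79 and -0.13). HG and si-FGF9 share their control libraries. ABCB1 lies farthest left with si-FGF9, and PCK2 is the single filled point to the right with added FGF9.

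Across the 3 comparisons the called genes fell into few patterns. CDH6 was called lower in all 3. ABCC4, SLC4A4, DPP4, GATM and LHX1 were called lower in HG and in si-FGF9. With si-FGF9 alone, 4 further genes were called lower (SLC22A5, ABCB1, SLC9A3 and EPCAM) and GGT1 and MIOX higher. PAX8, CDH16 and PCK2 were called with added FGF9 alone, and AMN, AQP1, MME and PAX2 in none. A call in one comparison and not in another does not show that the effects differ, and those differences were not tested.

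Fold changes over all genes moved with the GC content of the transcript. When all genes were cut into 10 equal bins by GC content, the GC-poorest bin had medians of -1.22 in HG, -1.79 in si-FGF9 and -0.36 with added FGF9 on the log2 scale, and the GC-richest bin had 0.30, 0.20 and 0.05. The 6 genes called lower in HG had transcripts of 39.3 to 53.6% GC (median 43.7%), and the 13 not called had a median of 58.6%. GGT1 (61.7%) and MIOX (58.6%), called higher with si-FGF9, were at the GC-rich end, and the 10 lower genes had a median of 45.0%. SLC4A4 (39.3% GC), at -1.09 and -1.65, lay at the medians of its own bin, -1.08 and -1.63. LHX1 (53.6%), at -1.24 and -1.44, lay below its bin (-0.16 and -0.52), and ABCB1 (43.1%), at -2.52 with si-FGF9, below its bin at -1.44.

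The correction for GC content also took out the overall shift of each library. It left all-gene medians of -0.02 in HG, -0.07 in si-FGF9 and -0.05 with added FGF9. The parts of GC content and overall shift in the lost calls were not told apart. After this correction, 1 of the 6 genes was called in HG (LHX1, log2 fold change -1.09), beside 3.78% of all genes higher and 3.06% lower. With si-FGF9, 4 of the 12 were called: GGT1 (1.15) and MIOX (1.22) higher, ABCB1 (-1.26) and SLC9A3 (-1.02, tested through NG alone) lower. These are 10.5% of the 19 genes in each direction, near the 12.3% of all genes higher and 12% lower. With added FGF9, PAX8 (-1.37), CDH6 (-1.04) and CDH16 (-1.12) were called lower, beside 3.03% of all genes higher and 2.18% lower. The other genes called lower in HG or si-FGF9 kept a negative value in that fit, apart from CDH6 with si-FGF9. For DPP4 it was -0.82 and -0.77, for ABCC4 -0.74 and -0.70, for GATM -0.77 and -0.73, and for SLC4A4 -0.02 and -0.05.

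**Figure D4:**
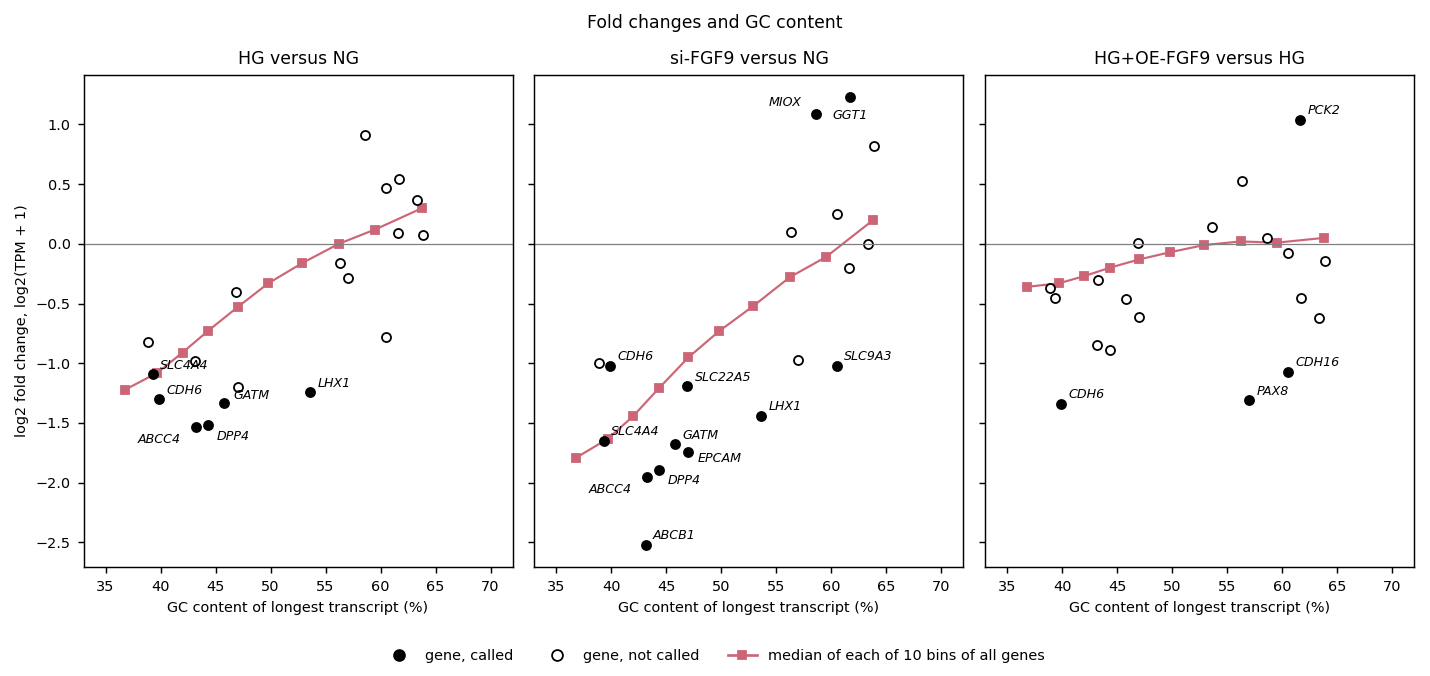
Log2 fold change of the 19 genes (circles, filled and named where called) against the GC content of their longest annotated transcript in percent, for the 3 comparisons. Red squares join the medians of 10 equal bins of all genes tested that have a GC value. The squares climb from -1.22 to 0.30 in HG and from -1.79 to 0.20 in si-FGF9. They climb less with added FGF9, from -0.36 to 0.05, and PAX8, CDH6, CDH16 and PCK2 stand clear of them there.

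Markers of other cell types moved with the comparisons too. Stromal genes did so in the first and second. Their summed level over 4 genes was 62.2 to 89.2 TPM in NG, 17.1 to 40.8 in HG, 11.6 to 21.0 in si-FGF9 and 11.5 to 22.4 in HG+OE-FGF9. The 2 that passed the minimum, COL1A1 and LUM, were called lower in HG and in si-FGF9, while PDGFRB reached at most 0.41 TPM. Over all genes tested, 22.7% were called lower in HG and 42.2% in si-FGF9. Under median-of-ratios scaling or quantile normalization neither stromal call held in HG, and 1 of the 2 held in si-FGF9. After the GC correction COL1A1 was called in HG (-1.21), with LUM at -0.18, and 1 of the 2 was called in si-FGF9. Podocyte markers summed to 28.9 to 34.9 TPM in NG, 14.9 to 21.4 in HG, 14.6 to 16.1 in si-FGF9 and 9.52 to 11.6 in HG+OE-FGF9, led by PODXL and SYNPO. PODXL was called lower in HG (-1.63, SE 0.23, adjusted p = 7.18e-04, limma), and also under each of those 3 settings. In si-FGF9 2 podocyte genes were called lower, and 0 under any of the 3 settings. With added FGF9, SYNPO was called lower (-1.31, SE 0.32, adjusted p = 0.0243) and the collecting duct gene ATP6V0D2 higher (1.1, SE 0.27, adjusted p = 0.0259, 4.04-fold in mean TPM), both also called under median-of-ratios scaling, quantile normalization and the GC correction. The part of these in the proximal tubule results was not tested.

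A wider set of 92 proximal tubule genes, in 4 lists, gave 44 that passed the minimum. In HG 1 was called higher and 12 lower with no overlap between groups, in si-FGF9 2 higher and 22 lower, and with added FGF9 1 higher and 4 lower. As shares of all genes, the same rule gave 1.59% and 22.6% for HG, 5.32% and 42.2% for si-FGF9, and 2.82% and 2.06% with added FGF9. The wider genes called lower were 27.3% of the 44 in HG and 50.0% in si-FGF9, near those shares. With added FGF9 they were 13.6% (6 genes, of which 4 had no overlap), above the 2.67% of all genes called lower. By list, the lower genes in HG were 3 of 14 transporters, 2 of 9 enzymes, 3 of 11 scaffold and endocytosis genes and 4 of 10 nephron transcription factors. With si-FGF9 they were 6, 5, 4 and 7, and with added FGF9, overlap allowed, 1, 2, 1 and 2. The median log2 fold change over the 44 was -0.73, -0.99 and -0.31, beside -0.39, -0.79 and -0.13 for all genes.

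Among these, CYP24A1, which inactivates vitamin D, had a mean of 55.6 TPM in NG, against 6.86 for HG and 1.56 for si-FGF9 (log2 fold changes -2.92 and -4.51, SE 0.31 each). DCXR, an L-xylulose reductase, went the other way, from 25.3 TPM to 68.8 and 102 TPM (1.38 and 1.98, SE 0.19 each). GLUD1, glutamate dehydrogenase, was called lower with si-FGF9 (-1.67, SE 0.34). The sodium pump beta subunit ATP1B1 was lower in HG (-1.56, SE 0.37) and si-FGF9 (-2.39, SE 0.37). PDZK1, which holds apical carriers in place, fell from 123 TPM in NG to 46.6 in HG (-1.42, SE 0.28) and 25.4 in si-FGF9 (-2.28, SE 0.28). DAB2, the adaptor of megalin, fell by 1.18 and 1.94 on the log2 scale (SE 0.16 each) and the trafficking protein MAL2 was lower in si-FGF9 (-1.91, SE 0.45).

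The factors JAG1, a Notch ligand kept in that list, and BHLHE40 were lower in HG (-1.32, SE 0.17, and -1.23, SE 0.37), and JAG1 (-1.61, SE 0.17) and MAF (-1.24, SE 0.24) in si-FGF9. With added FGF9, SLC3A2, the heavy chain shared by several amino acid exchangers, was at a mean of 224 TPM against 74.8 in HG (1.60, SE 0.18, adjusted p = 4.67e-04). The glucose transporter SLC2A1 was at 77.2 against 172 TPM (-1.11, SE 0.19, adjusted p = 0.00457), having also been lower with si-FGF9 than in NG (-1.32, SE 0.19). PDZK1IP1, a small membrane partner of PDZK1, was at 358 against 784 TPM (-1.14, SE 0.14), and MAF was lower (-1.07, SE 0.24). Each gene named in this and the previous paragraph kept its direction under median-of-ratios scaling, quantile normalization and the GC correction, but many calls were lost. CYP24A1 and ATP1B1 in both of their comparisons, SLC3A2, and DCXR and PDZK1 with si-FGF9 were called under all 3. JAG1 in HG and si-FGF9, DAB2 in HG and MAF with si-FGF9 were called under none, and the others lost the call under at least 1. With si-FGF9, MAF went to -0.44, -0.21 and -0.37 under the 3 settings, SLC2A1 to -0.27 under median-of-ratios scaling and MAL2 to -0.31 after the GC correction.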

How the data were processed

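RNA of HK2 cells was sequenced on an Illumina instrument in 12 libraries, 3 per group. The authors deposited TPM values per Ensembl gene for each library, rounded to 2 decimals. The counting program is not given in the sources used here. The submitters' processing notes name Bowtie 0.12.2 and mm8, a mouse build, while the identifiers are human. Depth is unknown, so no counting intervals were given, and 3 libraries per group limit the precision.

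The 35 genes and the wider and marker lists were chosen with earlier results of these data known. Symbols came from GENCODE release 29. The 14639 genes that reached 1 TPM in 3 libraries were fitted with limma 3.58.1 (R 4.3.3, trend) on log2(TPM + 1), with all 12 libraries and group as the only term. Calls needed a 1-unit log2 difference in size and p under 0.01, and adjusted p is Benjamini-Hochberg over all genes tested. An exact permutation test of 3 against 3 libraries cannot go below p = 0.1. Every one of the 35 genes is described, those under the minimum by their highest TPM. From the wider lists, at most 4 genes per list are named, those called without overlap that had the highest mean TPM. Some genes of the wider and marker lists that this rule selects are counted but not reported by name here. Like SLC9A3 and MME, some genes of those lists passed the minimum through NG alone. Scripts were tested on simulated data. Alternatives were another pseudocount, filter, threshold or spread estimate, median-of-ratios scaling, quantile normalization, TPM without mitochondrial genes, a spline correction for transcript GC content (5 degrees of freedom, 96.9% of tested genes had a value), a replicate block and each library left out.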

Additional observations from a re-analysis of the deposited data

How the results depend on the processing

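In HG versus NG, 6 of the genes were called. There were 3 with a TPM of at least 1 required in all 12 libraries (10 genes tested, 1.96% of all genes higher and 22.0% lower), 3 under quantile normalization (1 higher, 2 lower, beside 6.94% and 8.33% of all genes), 1 after the GC correction (3.78% and 3.06%) and 4 to 8 with 1 library left out, with 14.4 to 28.5% of all genes lower. In si-FGF9 versus NG, 12 were called, with 7 (6.04% and 41.6%), 6 (4 higher, 2 lower, beside 16.2% and 17.1%) and 4 (12.3% and 12%) under the same 3 settings and 11 to 13 with 1 library left out (40.8 to 42.1% of all genes lower). In HG+OE-FGF9 versus HG, 4 were called, and 3 to 7 with 1 library left out, 7 being without HG library 2, while 1.43 to 7.0% of all genes were lower. The si-FGF9 CDH6 log2 fold change of -1.02 became 0.02 under median-of-ratios scaling and 0.56 after the GC correction. Fewer genes entered under the stricter minimum. For the other settings the cause was not tested. A pseudocount of 0.1 gave 9, 14 and 5 calls, with 25.7, 46.5 and 4.74% of all genes lower.

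Replicate numbers did not pair the libraries: deviations of same-numbered libraries correlated between -0.44 and 0.25, above 0.1 in 3 of 18 pairs, and 2 of 12 libraries correlated best with their own number. With a replicate block the counts were 6, 11 and 4. Beside them, 1.63, 5.31 and 2.91% of all genes were higher and 22.4, 42.0 and 2.51% lower. The pairs HG+OE-FGF9 1 and 2 and NG 2 and 3 were much alike, and TPM cannot show whether they differ beyond sampling noise. Averaging each as 1 library, chosen after seeing the data, gave 3 calls with added FGF9 in the first case and 7 (HG) and 11 (si-FGF9) in the second. The first case had 2.42% of all genes called higher, against 1.37% lower. For the second case, the HG fit had 1.75% of all genes higher, against 21.9% lower. Its si-FGF9 fit had 5.31% higher, against 41.6% lower. Depth is unknown, so levels under 1 TPM carry no stated counting error.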
